A study of Danio rerio with 2 samples.

Results

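Genes of DNA replication and of mitosis were followed as a group of 48 in bulk RNA-seq of 2 sorted zebrafish cell populations. The genes had been listed by symbol for their known roles, with earlier results of these data already known. The other gene lists and marker genes below were chosen in the same way. Each symbol was matched to an Ensembl gene ID without regard to letter case, where a capital symbol without its paralog letter also counted (*birc5a* matched as BIRC5). All 48 matched, of 32520 genes in the tables. By role, 24 were genes of S phase, 4 were regulators of the G1/S transition and its checkpoint, and 20 were genes of mitosis.

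Lymphocytes came from thymi of untreated fish 6 weeks post fertilization and carry the label lck:mCherry+/CD8:EGFP+. EGFP+ myeloid cells came from melanoma of fish that the labels also place at 6 weeks post fertilization, after 24 h of SB431542, an inhibitor of the TGF-β receptor kinase. By the study's methods the thymus donors were Tg(cd8a:EGFP) fish, in which a cloned stretch upstream of *cd8a* drives EGFP, and the melanoma-bearing fish also carried BRAF V600E, were p53 null and nacre null, and grew tumors after *mitfa* had been given back with the MiniCoopR vector. The methods do not mention sorting on lck:mCherry and give another juvenile age for the thymus donors. EGFP marked both lymphocytes and a myeloid population in this line, so the reporter alone does not separate them. The number of pooled fish is not given in the sources used here. Each population had 1 library and no replicate, so no test could be made, and every difference below is between these 2 libraries. Cell type, tissue, genotype and treatment differed together and cannot be told apart. In RNA from a pool of cells, fewer cells of a type and less RNA per cell cannot be told apart either.

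A cell that is about to divide first licenses its replication origins. In G1 the origin recognition complex, Cdc6 and Cdt1 load the MCM2-7 helicase, and D-type and E-type cyclins with their kinases release E2F transcription factors from the retinoblastoma protein. In S phase Cdc45 and GINS complete the helicase, the polymerases alpha, delta and epsilon copy the strands with the sliding clamp PCNA, and ribonucleotide reductase supplies the precursors. The genes of mitosis are switched on later, toward the end of G2, and build the spindle, attach chromosomes to it and hold anaphase back until attachment is complete. In mammals, immature T cells of the thymus divide in bursts between the steps of antigen receptor rearrangement.

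The levels below are CPM, reads per 1000000 reads counted on genes, with no scaling for gene length, so a level is compared only with the level of the same gene in the other library. The thymus library held 32975680 reads on genes and the myeloid library 39446435, so that 3 reads, the upper limit that a count of 0 allows, were worth 0.0910 and 0.0761 CPM. Intervals are 95% intervals and cover counting error only, since reads amplified without molecular identifiers are not independent molecules. All 13 matched T cell markers stood at 1 CPM or more in thymus lymphocytes and 3 of them in melanoma myeloid cells, with summed levels of 2109 and 9.28 CPM. *lck*, *cd8b*, *cd28* and *cd247* were at 0 reads in melanoma myeloid cells. Of 11 matched phagocyte markers, 1 in thymus lymphocytes and 9 in melanoma myeloid cells reached 1 CPM, with sums of 44.0 and 3645 CPM. Melanocyte markers summed to 1.49 CPM over 10 genes in thymus lymphocytes and to 24845 CPM in melanoma myeloid cells, where they made up 2.48% of the reads, 9 of the 10 reached 1 CPM and *oca2* was at 0. Markers of keratinocytes summed to 36.5 and 234 CPM, of neutrophils to 132 and 656 CPM, of B cells to 11.3 and 31.4 CPM and of erythroid cells to 0.364 and 18.6 CPM in thymus lymphocytes and melanoma myeloid cells. Of the neutrophil markers, *mmp9* and *mmp13a* were at 440 and 179 CPM in melanoma myeloid cells, and *lyz* and *npsn* at 7.55 and 29.2 CPM. In thymus lymphocytes *mmp9* alone held 4354 of the 4355 reads on neutrophil markers. There *tp63* held 32.6 of the 36.5 CPM of keratinocyte markers, beside 0.761 CPM in melanoma myeloid cells. The keratinocyte markers *krt4*, *krt5*, *epcam* and *cdh1* were higher in melanoma myeloid cells. For the 15139 genes that reached 1 CPM in at least 1 library, the median log2 ratio of the thymus over the myeloid library, with 1 CPM added to both levels, was 0.73, and the middle 50% lay between −1.28 and 2.37. This median was 0.20 with effective library sizes from edgeR's TMM method and 0.24 with DESeq2 size factors, so the ratios of the members are also read against it.

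Most S phase genes were higher in thymus lymphocytes, and most mitosis genes were higher in melanoma myeloid cells. Of the 24 S phase genes, 18 were higher in thymus lymphocytes by 2-fold or more with 1 CPM added, 0 were lower by as much and 6 lay within 2-fold. Of all genes tested in this way, which reached 1 CPM in at least 1 library, 46.4% were higher in thymus lymphocytes by this rule. The median log2 ratio of the S phase genes was 2.56, which is 1.84 above that of all genes tested. Of the 20 mitosis genes, 3 were higher in thymus lymphocytes by 2-fold or more, 12 were lower and 5 lay within 2-fold, where 28.6% of all genes tested were lower. Their median log2 ratio was −1.68, or −2.41 relative to all genes tested. With TMM or DESeq2 library sizes the counts for S phase genes stayed at 18 and 0, while 15 mitosis genes were lower by 2-fold or more. With these sizes the shares of all genes also moved, to 39.8% higher and 35.6% lower with TMM and to 40.2% higher and 35.0% lower with DESeq2. Summed over the list, S phase genes had 2164 CPM in thymus lymphocytes and 353 CPM in melanoma myeloid cells, a ratio of 6.13 (6.02 to 6.24). Mitosis genes summed to 622 CPM in thymus lymphocytes and to 1882 CPM in melanoma myeloid cells, a ratio of 0.331 (0.326 to 0.336).

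**Figure D1:**
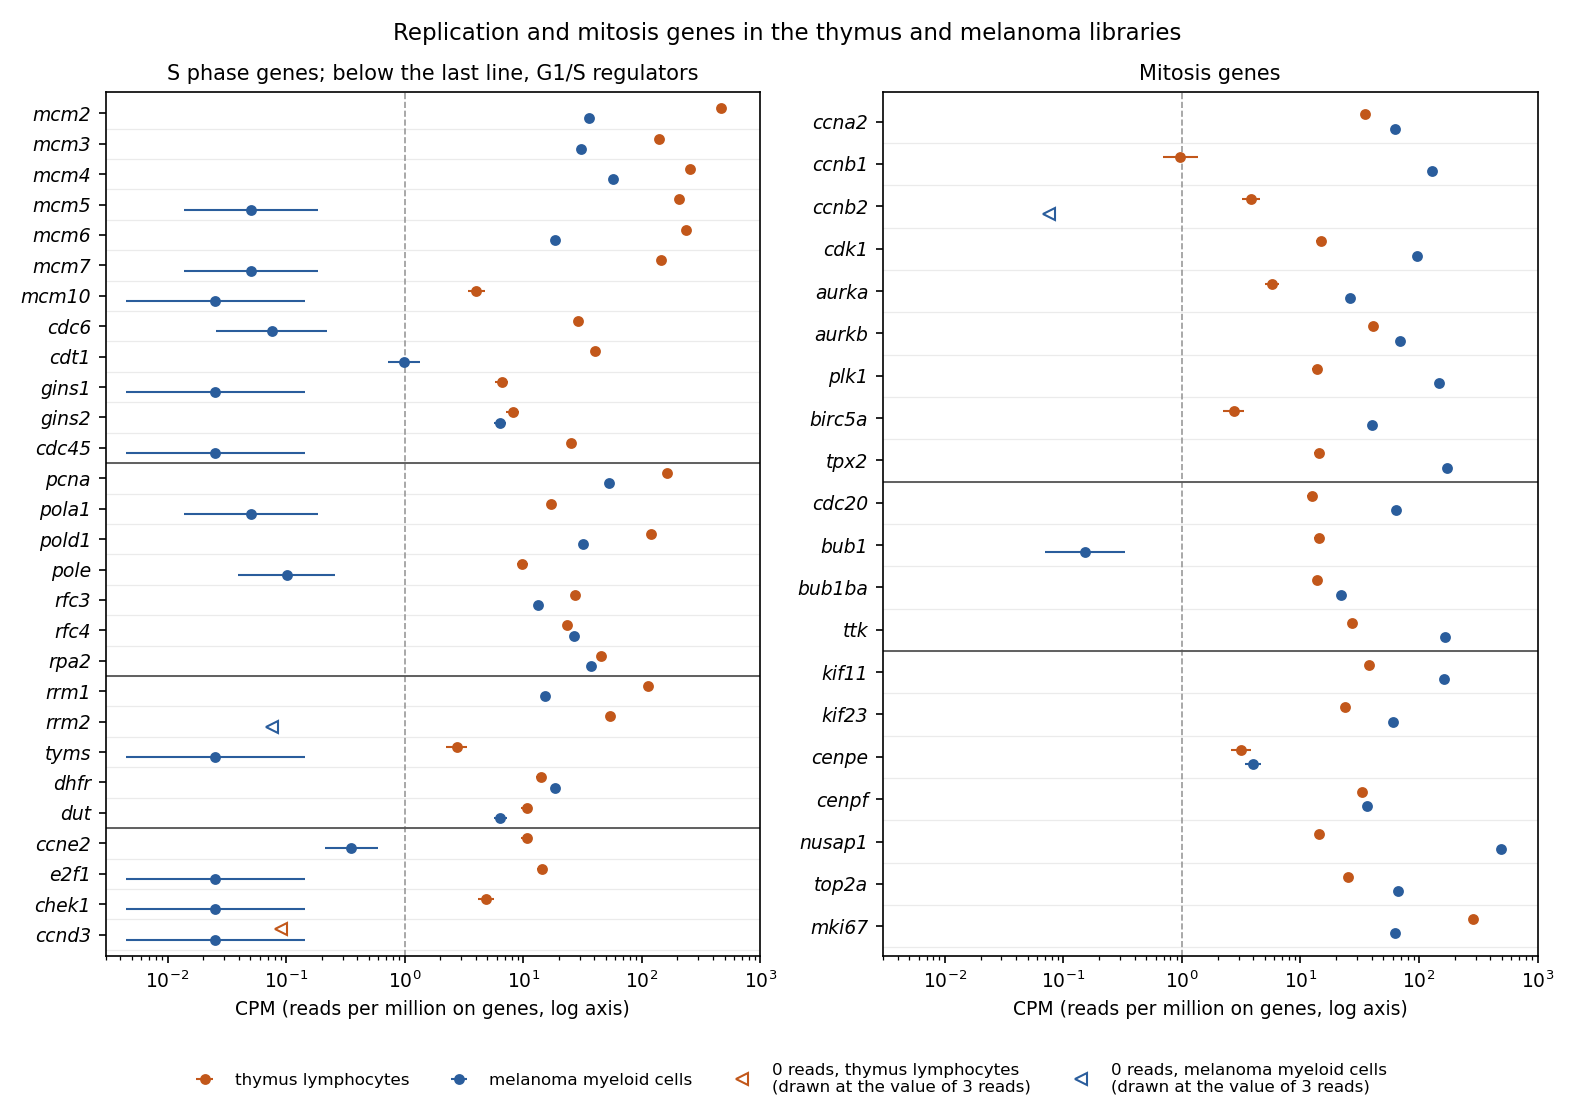
CPM of each member in thymus lymphocytes (orange) and melanoma myeloid cells (blue) on a log axis, with 95% Wilson intervals for counting error; horizontal lines separate roles, the dashed line marks 1 CPM, and open triangles mark 0 reads, drawn at the value of 3 reads, so a gene with 1 or 2 reads lies left of them. In the left panel orange lies to the right for 22 of 24 S phase genes, and in the right panel blue lies to the right for 17 of 20 mitosis genes. Of the 15139 genes tested, 8915 were higher in thymus lymphocytes by any amount. With TMM or DESeq2 library sizes 20 of the 24 S phase genes were higher there.

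The licensing and helicase genes showed the widest gap of the S phase roles. Of 12, 11 (91.7%) were higher in thymus lymphocytes by 2-fold or more, beside 46.4% of all genes tested. Their sums were 1561 CPM in thymus lymphocytes and 151 CPM in melanoma myeloid cells, a ratio of 10.4 (10.1 to 10.6). The helicase subunit gene *mcm2* (ENSDARG00000102798) had 15270 reads, or 463 CPM (456 to 470), in thymus lymphocytes and 1430 reads, or 36.3 CPM (34.4 to 38.2), in melanoma myeloid cells, a ratio of 12.8 (12.1 to 13.5). *mcm3* was at 141 CPM in thymus lymphocytes and 30.6 CPM in melanoma myeloid cells, a ratio of 4.60 (4.32 to 4.90). *mcm4* was at 255 CPM in thymus lymphocytes and 57.4 CPM in melanoma myeloid cells, a ratio of 4.44 (4.24 to 4.65). These subunits thus differed by 4-fold or more, and each had reads in quantity in both libraries, the fewest being the 1209 of *mcm3* in melanoma myeloid cells.

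Of the remaining subunit genes of the same ring, *mcm6* shared that pattern and *mcm5* and *mcm7* did not. *mcm6* (ENSDARG00000057683) was at 237 CPM in thymus lymphocytes and 18.7 CPM in melanoma myeloid cells, a ratio of 12.7 (11.7 to 13.7), and a second ID of that symbol had 0 reads in both. *mcm5* (ENSDARG00000019507) had 6789 reads, or 206 CPM (201 to 211), in thymus lymphocytes and 2 reads, or 0.0507 CPM (0.0139 to 0.185), in melanoma myeloid cells, a ratio of 4061 with an interval that starts at 1124. *mcm7* (ENSDARG00000101180) had 4795 reads, or 145 CPM (141 to 150), in thymus lymphocytes and 2 reads, again 0.0507 CPM, in melanoma myeloid cells, a ratio of 2868 with an interval from 793.5. The products of all 6 genes form a single hexamer, yet in melanoma myeloid cells *mcm5* and *mcm7* lay at the level of a few reads while the others had 739 to 2265 reads. In thymus lymphocytes the 6 genes ranged from 4648 to 15270 reads.

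Loading factors and the other helicase components were higher in thymus lymphocytes by 2-fold or more with 1 exception. *cdc6*, a loading ATPase, had 956 reads (29.0 CPM) in thymus lymphocytes and 3 reads (0.0761 CPM) in melanoma myeloid cells, a ratio of 381 (130 to 1852). *cdt1*, which brings MCM2-7 to the origin, was at 40.2 CPM (38.0 to 42.4) in thymus lymphocytes and 0.989 CPM (0.723 to 1.35) in melanoma myeloid cells, a ratio of 40.6 (29.5 to 57.4). *cdc45*, the activating subunit of the helicase, had 839 reads (25.4 CPM) in thymus lymphocytes and 1 read in melanoma myeloid cells. It was the lowest possible count above 0, and the ratio of 1004 has an interval that starts at 180. *mcm10*, which helps to fire loaded origins, had 133 reads (4.03 CPM) in thymus lymphocytes and 1 read in melanoma myeloid cells, a ratio of 159 with an interval from 28.1. *gins1* had 217 reads (6.58 CPM) in thymus lymphocytes and 1 read in melanoma myeloid cells, a ratio of 260 with an interval from 46.1. Its partner *gins2* was the exception, with 269 reads (8.16 CPM) in thymus lymphocytes and 252 reads (6.39 CPM) in melanoma myeloid cells, a log2 ratio of 0.31 that turned to −0.20 with TMM and −0.16 with DESeq2 library sizes.

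Genes for the polymerases and their helpers were divided, with 4 of 7 (57.1%) higher in thymus lymphocytes by 2-fold or more. This is not far above the 46.4% of all genes tested. Their sums were 407 and 162 CPM in thymus lymphocytes and melanoma myeloid cells. *pcna* (ENSDARG00000054155), the sliding clamp, was at 164 CPM (160 to 168) in thymus lymphocytes and 53.2 CPM (51.0 to 55.5) in melanoma myeloid cells, a ratio of 3.08 (2.93 to 3.24). *pold1*, the catalytic subunit of polymerase delta, was at 121 CPM in thymus lymphocytes and 31.8 CPM in melanoma myeloid cells, a ratio of 3.80 (3.57 to 4.05). *pola1*, the catalytic subunit of polymerase alpha, had 568 reads (17.2 CPM) in thymus lymphocytes and 2 reads in melanoma myeloid cells, a ratio of 340 with an interval from 93.6. The catalytic subunit of polymerase epsilon was similarly sparse in melanoma myeloid cells: *pole* had 325 reads (9.86 CPM) in thymus lymphocytes and 4 reads (0.101 CPM) in melanoma myeloid cells, a ratio of 97.2 (37.6 to 359).

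The clamp loader and single-strand binding genes of the list lay within 2-fold with 1 CPM added. *rfc3* was at 27.2 CPM in thymus lymphocytes and 13.4 CPM in melanoma myeloid cells, a ratio of 2.04 (1.83 to 2.27), and just inside the limit with a log2 ratio of 0.97 once 1 CPM was added. *rfc4* was at 23.4 CPM (21.8 to 25.1) in thymus lymphocytes and 26.6 CPM (25.1 to 28.3) in melanoma myeloid cells, a log2 ratio of −0.18. *rpa2*, a subunit of the protein that coats unwound DNA, was at 45.2 CPM in thymus lymphocytes and 37.1 CPM in melanoma myeloid cells, a log2 ratio of 0.28 that turned to −0.29 with TMM and −0.25 with DESeq2 library sizes. These genes do not act in replication alone, since replication protein A also coats DNA during repair.

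Of the 5 genes of nucleotide supply, 3 (60%) were higher in thymus lymphocytes by 2-fold or more, beside 46.4% of all genes tested. *rrm1*, the large subunit of ribonucleotide reductase, was at 114 CPM (110 to 118) in thymus lymphocytes and 15.2 CPM (14.0 to 16.5) in melanoma myeloid cells, a ratio of 7.50 (6.88 to 8.19). *rrm2* (ENSDARG00000020711), the small subunit, had 1793 reads (54.4 CPM) in thymus lymphocytes and 0 reads in melanoma myeloid cells, which makes it at least 715-fold higher in thymus lymphocytes against the 3 reads that a count of 0 allows. A second ID of that symbol had 4 reads in thymus lymphocytes and 1 in melanoma myeloid cells. The enzyme needs a large and a small subunit. Of *rrm1* and *rrm2*, only *rrm1* was counted above that limit in melanoma myeloid cells, and no other small-subunit gene was looked up. *tyms*, thymidylate synthase, had 91 reads (2.76 CPM) in thymus lymphocytes and 1 read in melanoma myeloid cells, a ratio of 109 with an interval from 19.1. The other two lay within 2-fold. *dut*, which removes dUTP, was at 10.7 CPM in thymus lymphocytes and 6.41 CPM in melanoma myeloid cells, and *dhfr*, dihydrofolate reductase, at 14.1 CPM in thymus lymphocytes and 18.7 CPM in melanoma myeloid cells, the lowest log2 ratio of the S phase genes at −0.39.

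All 24 S phase genes reached 1 CPM in thymus lymphocytes, where 39.8% of all genes did, and 13 reached it in melanoma myeloid cells, where 33.0% did. Of the 11 others, 9 had 3 reads or fewer in melanoma myeloid cells, namely *mcm5*, *mcm7*, *mcm10*, *cdc6*, *gins1*, *cdc45*, *pola1*, *rrm2* and *tyms*. This was 37.5% of the S phase genes, against 25.1% of all genes at 1 CPM or more in thymus lymphocytes. Only *cdt1* and *pole* lay between that limit and 1 CPM. Left to the 14 genes with 10 reads or more in both libraries, the median log2 ratio was 1.75 and 8 were higher in thymus lymphocytes by 2-fold or more. For all genes tested, not restricted in this way, the median was 0.73 and 46.4% were higher. No share of all genes was taken under the same restriction, so the 8 of 14 have no like background. With genes at 0 reads set to 3 reads and no CPM added, the median log2 ratio of all 24 was 3.67.

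The 4 members that regulate the G1/S transition and its checkpoint had 14 reads or fewer in melanoma myeloid cells. The 3 that could be tested were higher in thymus lymphocytes by 2-fold or more, beside 46.4% of all genes tested. Of the other G1 cyclin, kinase and E2F genes given below, some were well counted in melanoma myeloid cells and some were not. *ccne2*, a cyclin E that drives entry into S phase, was at 10.7 CPM (9.64 to 11.9) in thymus lymphocytes and 0.355 CPM (0.211 to 0.596) in melanoma myeloid cells, a ratio of 30.2 (17.7 to 55.7). *e2f1* (ENSDARG00000103868), an activator of S phase genes, had 476 reads (14.4 CPM) in thymus lymphocytes and 1 read in melanoma myeloid cells, a ratio of 569 with an interval from 102. *chek1*, the checkpoint kinase that answers stalled forks, had 159 reads (4.82 CPM) in thymus lymphocytes and 1 read in melanoma myeloid cells, a ratio of 190 with an interval from 33.6. *ccnd3*, a D-type cyclin that mouse thymocytes need for their expansion, had 0 reads in thymus lymphocytes and 1 read in melanoma myeloid cells, so no ratio is given.

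Turning to mitosis, the cyclins and kinases that start it were mostly higher in melanoma myeloid cells. Of 9, 6 (66.7%) were lower in thymus lymphocytes by 2-fold or more, beside 28.6% of all genes tested. Their sums were 132 and 743 CPM in thymus lymphocytes and melanoma myeloid cells. *ccnb1* (ENSDARG00000051923), the main mitotic cyclin, had 32 reads, or 0.970 CPM (0.687 to 1.37), in thymus lymphocytes and 5036 reads, or 128 CPM (124 to 131), in melanoma myeloid cells, a ratio of 0.00760 (0.00519 to 0.0107). It was the lowest ratio of the 48 genes and the only S phase or mitosis gene below 1 CPM in thymus lymphocytes. Its paralog *ccnb2* (ENSDARG00000036180) went the other way, with 125 reads, or 3.79 CPM (3.18 to 4.52), in thymus lymphocytes and 0 reads in melanoma myeloid cells, at least 49.8-fold higher in thymus lymphocytes. *cdk1*, the kinase both cyclins activate, was at 14.8 CPM (13.5 to 16.1) in thymus lymphocytes and 96.6 CPM (93.6 to 99.7) in melanoma myeloid cells, a ratio of 0.153 (0.139 to 0.168). *ccna2*, which acts from S phase into mitosis, lay within 2-fold at 35.2 CPM in thymus lymphocytes and 63.1 CPM in melanoma myeloid cells.

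The polo and Aurora kinases and their partners had the same direction. *plk1*, which drives entry into mitosis and spindle assembly, was at 13.8 CPM (12.6 to 15.2) in thymus lymphocytes and 147 CPM (143 to 151) in melanoma myeloid cells, a ratio of 0.0940 (0.0853 to 0.103). *aurka*, the kinase of the spindle poles, was at 5.73 CPM in thymus lymphocytes and 26.0 CPM in melanoma myeloid cells, a ratio of 0.220 (0.188 to 0.257). *tpx2*, which activates Aurora A on the spindle, was at 14.3 CPM in thymus lymphocytes and 173 CPM in melanoma myeloid cells, a ratio of 0.0828 (0.0752 to 0.0909). Aurora B works at the centromere with survivin, the product of *birc5a*, and the genes of that pair differed to unequal degrees. *aurkb* was at 40.7 CPM in thymus lymphocytes and 69.5 CPM in melanoma myeloid cells, a log2 ratio of −0.76, and *birc5a* at 2.73 CPM in thymus lymphocytes and 40.5 CPM in melanoma myeloid cells, a log2 ratio of −3.47.

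Of the 4 genes of the spindle checkpoint and its target, 2 (50%) were lower in thymus lymphocytes by 2-fold or more. Of all genes tested 28.6% were. *cdc20*, the activator of the anaphase-promoting complex, was at 12.6 CPM (11.4 to 13.9) in thymus lymphocytes and 63.9 CPM (61.4 to 66.4) in melanoma myeloid cells, a ratio of 0.197 (0.177 to 0.219). *ttk*, the kinase at the top of the checkpoint, was at 27.2 CPM in thymus lymphocytes and 165 CPM in melanoma myeloid cells, a ratio of 0.165 (0.154 to 0.177). *bub1ba*, an inhibitor of *cdc20*, lay within 2-fold at 13.9 CPM in thymus lymphocytes and 21.8 CPM in melanoma myeloid cells. The kinase gene *bub1* (ENSDARG00000077029) stood apart from the rest, with 473 reads, or 14.3 CPM (13.1 to 15.7), in thymus lymphocytes and 6 reads, or 0.152 CPM (0.0697 to 0.332), in melanoma myeloid cells, a ratio of 94.3 (43.0 to 258).

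Among the genes of the spindle and of chromosome structure, 4 of 7 (57.1%) were lower in thymus lymphocytes by 2-fold or more. Of all genes tested 28.6% were. *nusap1* (ENSDARG00000002403), which bundles spindle microtubules, had 474 reads, or 14.4 CPM (13.1 to 15.7), in thymus lymphocytes and 19572 reads, or 496 CPM (489 to 503), in melanoma myeloid cells, a ratio of 0.0290 (0.0264 to 0.0317). It carried 19572 of the 74230 reads on mitosis genes in melanoma myeloid cells. *kif11*, the motor that pushes the spindle poles apart, was at 37.8 CPM in thymus lymphocytes and 163 CPM in melanoma myeloid cells, a ratio of 0.232 (0.218 to 0.247). *kif23*, a motor of the central spindle, was at 23.6 CPM in thymus lymphocytes and 59.8 CPM in melanoma myeloid cells, a ratio of 0.395 (0.364 to 0.428). *top2a*, which untangles chromosomes, was at 25.1 CPM in thymus lymphocytes and 65.9 CPM in melanoma myeloid cells, a ratio of 0.380 (0.351 to 0.411).

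The kinetochore genes of this role lay within 2-fold. Relative to the median log2 ratio of all genes tested, *cenpe* was at −0.99 and *cenpf* at −0.87. *cenpe* was at 3.12 CPM (2.58 to 3.79) in thymus lymphocytes and 3.95 CPM (3.38 to 4.63) in melanoma myeloid cells. The interval of its ratio by total reads, 0.610 to 1.02, included equal levels. *cenpf* was at 32.9 CPM in thymus lymphocytes and 36.4 CPM in melanoma myeloid cells, a ratio of 0.905 (0.836 to 0.980). *mki67* (ENSDARG00000091150), which coats mitotic chromosomes and is the gene of the Ki-67 antigen used to mark dividing cells, was the third mitosis gene higher in thymus lymphocytes. It had 9405 reads, or 285 CPM (280 to 291), in thymus lymphocytes and 2489 reads, or 63.1 CPM (60.7 to 65.6), in melanoma myeloid cells, a ratio of 4.52 (4.32 to 4.73), and carried 9405 of the 20515 reads on mitosis genes in thymus lymphocytes. Melanocyte markers, at 2.48% of the reads of the myeloid library, and phagocyte markers, at 0.365%, were higher there, as most mitosis genes were. T cell markers were higher in thymus lymphocytes, as most S phase genes were. The markers were chosen by cell type, so a shared direction does not show which cells the mitosis reads came from. What part RNA of tumor cells had in the myeloid levels was not tested.

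All but *ccnb1* of the 20 mitosis genes reached 1 CPM in thymus lymphocytes, and 18 did in melanoma myeloid cells, the exceptions being *ccnb2* and *bub1*. Over all 48 genes, 46 were at 1 CPM or more in thymus lymphocytes and 31 in melanoma myeloid cells. Of all 32520 genes, 39.8% were at 1 CPM or more in thymus lymphocytes and 33.0% in melanoma myeloid cells. None of the S phase or mitosis genes had 3 reads or fewer in thymus lymphocytes, where 11.1% of all genes at 1 CPM or more in melanoma myeloid cells did. In melanoma myeloid cells 1 mitosis gene had 3 reads or fewer. This was 5.26% of the 19 mitosis genes at 1 CPM or more in thymus lymphocytes, against 25.1% of all such genes.

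The balance of both lists within a library does not depend on how the library is scaled. Mitosis genes had 0.287 reads (0.283 to 0.292) for each read on S phase genes in thymus lymphocytes and 5.33 (5.23 to 5.42) in melanoma myeloid cells, an 18.5-fold difference in the ratio. Reads were not divided by gene length before they were summed. Without *mki67* the ratio was 0.156 in thymus lymphocytes and 5.15 in melanoma myeloid cells. The same ratio over the lists of other replication and mitosis genes described next was 0.997 (0.984 to 1.01) in thymus lymphocytes and 2.81 (2.78 to 2.85) in melanoma myeloid cells, 2.82-fold apart.

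**Figure D2:**
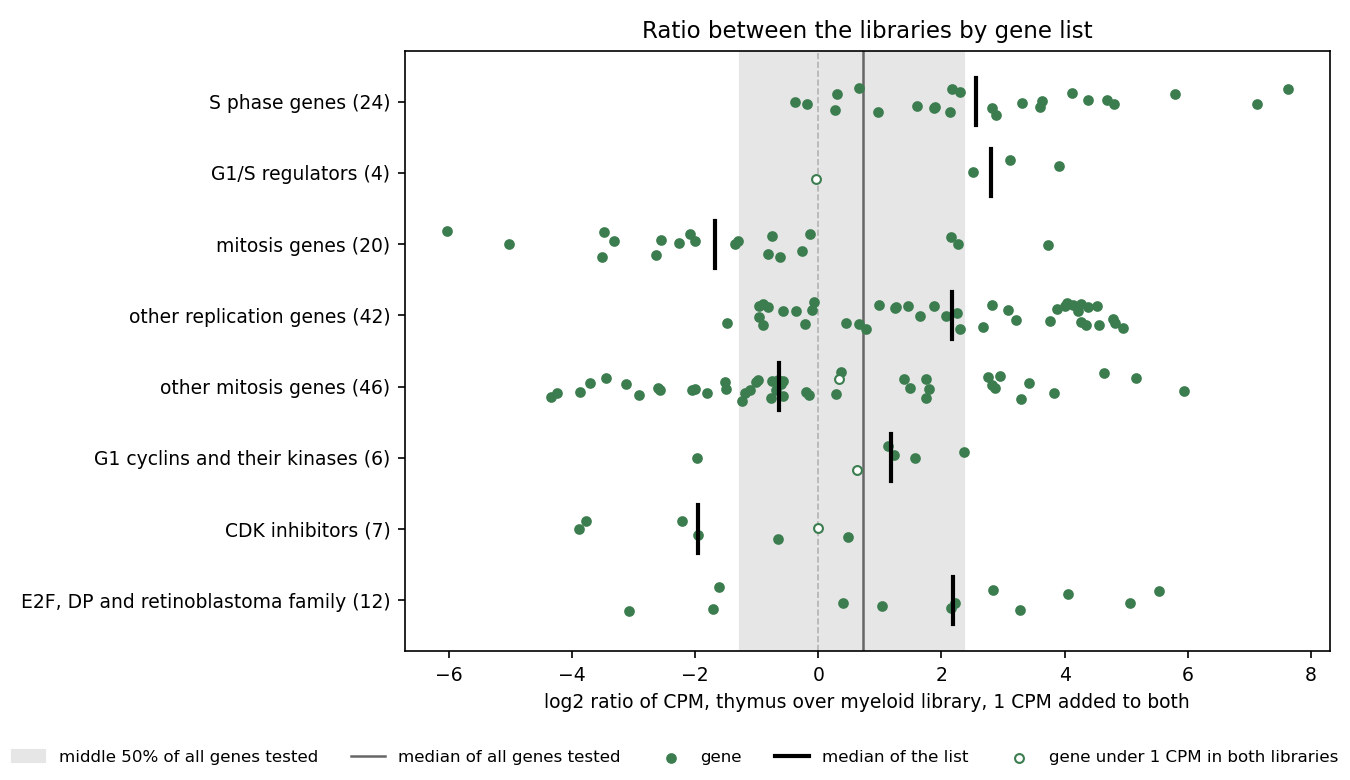
Log2 ratio of CPM, thymus over myeloid library with 1 CPM added to both, for each gene of 8 lists (number of genes in brackets); the black bar is the median of the list, the gray line and band are the median (0.73) and middle 50% (−1.28 to 2.37) of the 15139 genes tested, and open points are genes under 1 CPM in both libraries. S phase genes (median 2.56) lie mostly right of the band's center and mitosis genes (median −1.68) mostly left of 0, with *ccnb2*, *bub1* and *mki67* on the right.

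Further genes of DNA replication were mostly higher in thymus lymphocytes. Among those well counted in both libraries, the median ratio was not above that of all genes tested. Of 44 symbols 42 matched, and 27 (64.3%) were higher in thymus lymphocytes by 2-fold or more, 1 was lower and 14 lay within 2-fold. Of all genes tested 46.4% were higher and 28.6% lower. The median log2 ratio was 2.16, but 0.56 over the 24 genes with 10 reads or more in both libraries. That of all genes tested, not restricted in this way, was 0.73. With TMM library sizes 25 were higher and 6 lower, beside 39.8% and 35.6% of all genes. With DESeq2 size factors 26 were higher and 6 lower, beside 40.2% and 35.0% of all genes. In melanoma myeloid cells 17 of them (40.5%) had 3 reads or fewer, against 25.1% of all genes at 1 CPM or more in thymus lymphocytes. High ratios were those of *dnmt1*, which copies DNA methylation onto the new strand, with 1009 reads (30.6 CPM) in thymus lymphocytes and 1 read in melanoma myeloid cells, and *tk1*, thymidine kinase, with 895 reads (27.1 CPM) in thymus lymphocytes and 0 in melanoma myeloid cells. At the other end, *pole3*, a histone-fold subunit of polymerase epsilon, was at 95.7 CPM in thymus lymphocytes and 270.1 CPM in melanoma myeloid cells, the 1 gene lower by 2-fold or more. *fen1*, the flap nuclease, was at 26.7 CPM in thymus lymphocytes and 53.0 CPM in melanoma myeloid cells.

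Further genes of mitosis were more evenly divided than the 20 members. The 50 symbols stood for 46 genes, with a median log2 ratio of −0.63. Of the 45 that could be tested 15 (33.3%) were higher in thymus lymphocytes by 2-fold or more, 18 (40%) were lower and 12 lay within 2-fold. Of all genes tested 46.4% were higher and 28.6% lower. With TMM library sizes 14 (31.1%) were higher and 25 (55.6%) lower, beside 39.8% and 35.6% of all genes. The lowest ratios were those of the motor genes *kifc1*, at 15.1 CPM in thymus lymphocytes and 327 CPM in melanoma myeloid cells, and *kif2c*, at 15.95 CPM in thymus lymphocytes and 321 CPM in melanoma myeloid cells. *ube2c*, the ubiquitin-conjugating enzyme of the anaphase-promoting complex, followed at 6.49 CPM in thymus lymphocytes and 109 CPM in melanoma myeloid cells. The highest were *smc2*, a core condensin subunit, with 2102 reads (63.7 CPM) in thymus lymphocytes and 2 reads in melanoma myeloid cells, *plk4*, the kinase of centriole duplication, with 1288 reads (39.1 CPM) in thymus lymphocytes and 5 reads (0.127 CPM) in melanoma myeloid cells, and *mybl2b*, a transcription factor of cell cycle genes, with 806 reads (24.4 CPM) in thymus lymphocytes and 1 read in melanoma myeloid cells. PRC1, which stands for both *prc1a* and *prc1b*, matched an ID at 26.2 CPM in thymus lymphocytes and 112 CPM in melanoma myeloid cells and a second at 9.19 CPM in thymus lymphocytes and 1 read in melanoma myeloid cells.

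Because subunits of a complex act together, the members and the other genes were also set out by complex, a grouping made after the values were seen. In 11 complexes with 47 genes, 0 genes had 3 reads or fewer in thymus lymphocytes and 14 did in melanoma myeloid cells, spread over 8 complexes. This was 29.8% of the 47, near the 25.1% of all genes at 1 CPM or more in thymus lymphocytes, so the count by itself does not set the complexes apart. Of all genes at 1 CPM or more in melanoma myeloid cells, 11.1% had 3 reads or fewer in thymus lymphocytes. For GINS, the 4 genes had 178 to 269 reads in thymus lymphocytes, whereas in melanoma myeloid cells *gins1*, *gins3* and *gins4* had 1, 0 and 1 reads beside 252 of *gins2*. For polymerase alpha-primase, the 4 genes had 130 to 652 reads in thymus lymphocytes, whereas in melanoma myeloid cells *pola1*, *pola2* and *prim1* had 2, 3 and 0 reads beside 959 of *prim2*. For polymerase delta, *pold2* and *pold3* had 452 and 512 reads in thymus lymphocytes beside 3980 of *pold1*, and 0 and 1 reads in melanoma myeloid cells beside 1253 of *pold1*. In each of these complexes, then, 1 subunit gene was well counted in melanoma myeloid cells and its partners hardly at all. Condensin had 2102 reads of *smc2* and 3671 of *smc4* in thymus lymphocytes, and 2 of *smc2* and 587 of *smc4* in melanoma myeloid cells. Replication factor C had 655 reads of *rfc1* in thymus lymphocytes and 0 in melanoma myeloid cells, with the other 4 subunit genes within 2-fold. No matched gene of replication protein A, the chromosomal passenger complex or the Ndc80 complex of the kinetochore was that low. The fewest reads were those of *rpa3*, with 88 in thymus lymphocytes and 230 in melanoma myeloid cells. Of the chromosomal passenger complex, *incenp* matched no ID. RNA that was lost before sequencing and RNA that was absent from the cells cannot be told apart from these counts.

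**Figure D3:**
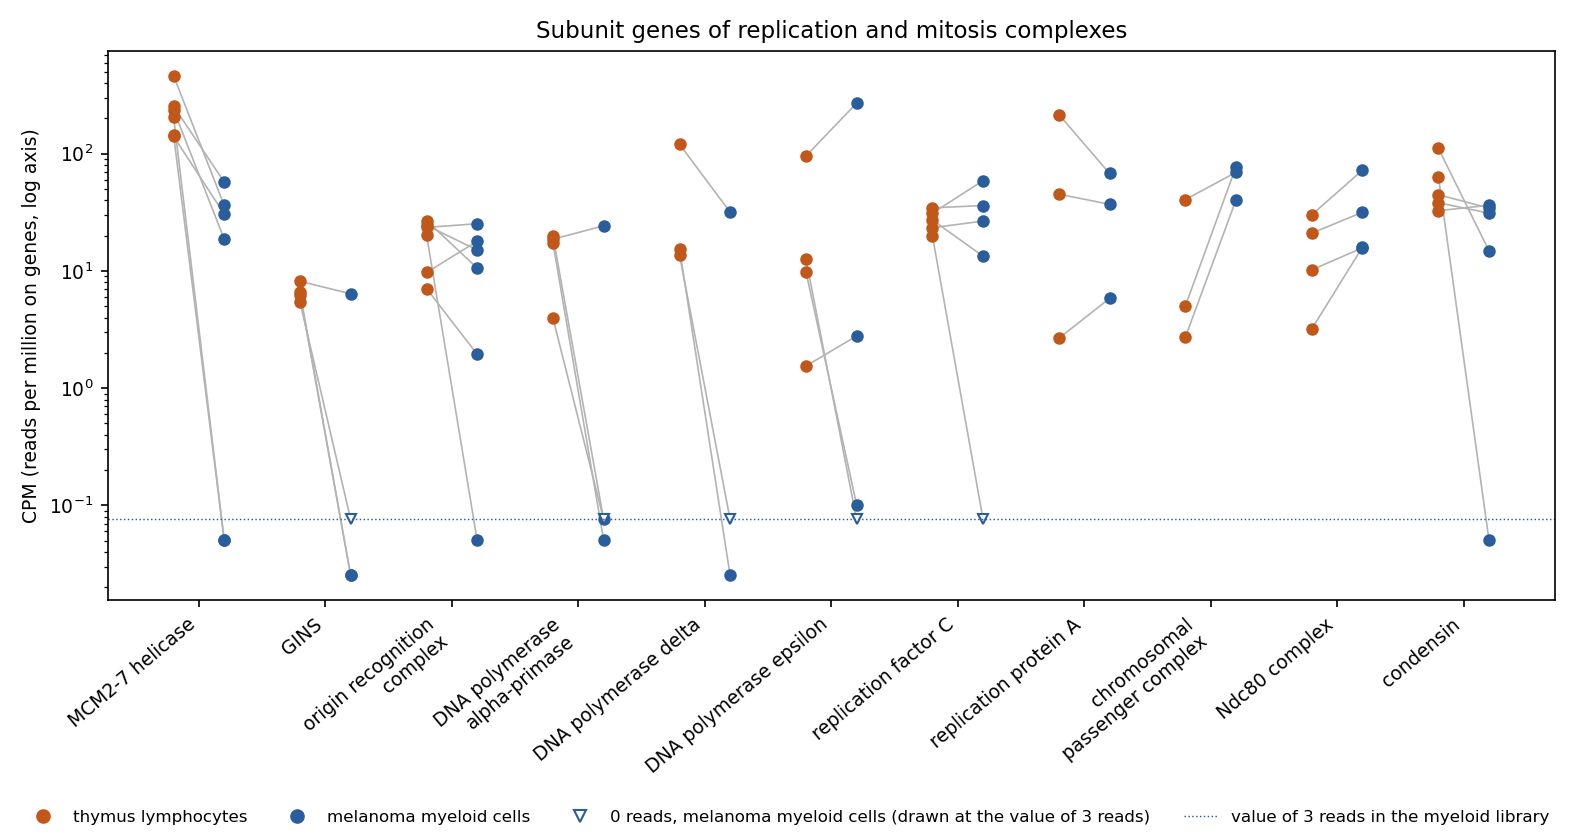
CPM of the subunit genes of 11 complexes on a log axis, thymus library left (orange) and myeloid library right (blue), with a gray line joining each gene; the dotted line is the value of 3 reads in melanoma myeloid cells, and open triangles are genes at 0 reads there. In 8 complexes at least 1 line drops to the dotted line or below it while another subunit of the complex stays above 1 CPM, and none does so toward the thymus library. The drops are 14 of the 47 genes (29.8%), near the 25.1% of all genes at 1 CPM or more in thymus lymphocytes. In the other direction the share of all genes was 11.1%. The complexes were grouped after the values were seen.

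Upstream of S phase, the G1 cyclins and their kinases were higher in thymus lymphocytes by 2-fold or more for 4 of 5 genes tested (80%). Of all genes tested 46.4% were. With TMM or DESeq2 library sizes 2 of the 5 (40%) were higher, near the 39.8% and 40.2% of all genes. *ccnd1* was at 75.0 CPM in thymus lymphocytes and 31.3 CPM in melanoma myeloid cells. CCND2 (ENSDARG00000051748), which stands for *ccnd2a* and *ccnd2b*, was at 562 CPM in thymus lymphocytes and 256 CPM in melanoma myeloid cells, and a second ID of that symbol had 929 reads (28.2 CPM) in thymus lymphocytes and 0 in melanoma myeloid cells. D-type cyclins were thus counted in both libraries, even though *ccnd3* had 0 reads in thymus lymphocytes and 1 in melanoma myeloid cells. *ccne1* had 158 reads (4.79 CPM) in thymus lymphocytes and 5 reads (0.127 CPM) in melanoma myeloid cells. *cdk6*, a partner of D-type cyclins, was at 23.0 CPM in thymus lymphocytes and 7.05 CPM in melanoma myeloid cells, and *cdk4*, the other partner, was under 1 CPM in both libraries with 18 reads in thymus lymphocytes and 0 in melanoma myeloid cells. *cdk2*, the partner of cyclins E and A, went the other way at 21.7 CPM in thymus lymphocytes and 87.8 CPM in melanoma myeloid cells, a ratio of 0.247 (0.228 to 0.268).

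Inhibitors of these kinases were lower in thymus lymphocytes by 2-fold or more for 4 of 6 genes tested (66.7%), and 0 were higher. Of all genes tested 28.6% were lower and 46.4% higher. *cdkn1ca* was at 3.46 CPM (2.88 to 4.15) in thymus lymphocytes and 65.1 CPM (62.6 to 67.7) in melanoma myeloid cells, and *cdkn1cb* at 0.455 CPM in thymus lymphocytes and 18.9 CPM in melanoma myeloid cells. Both are paralogs of the p57 inhibitor. The INK4-type genes, which block Cdk4 and Cdk6, were *cdkn2a/b* at 0.637 CPM in thymus lymphocytes and 5.32 CPM in melanoma myeloid cells, *cdkn2c* at 2.97 CPM in thymus lymphocytes and 17.5 CPM in melanoma myeloid cells, and *cdkn2d* at 0 reads in both. CDKN1B, the p27 inhibitor, was at 304 CPM in thymus lymphocytes and 481 CPM in melanoma myeloid cells, and its second ID had 272 reads (8.25 CPM) in thymus lymphocytes and 2 reads in melanoma myeloid cells. *cdkn1a*, the p21 inhibitor and a target of p53, was at 16.1 CPM in thymus lymphocytes and 11.2 CPM in melanoma myeloid cells, whose donors lacked p53. Its log2 ratio of 0.49 turned to −0.06 with TMM and −0.01 with DESeq2 library sizes.

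E2F transcription factors bind DNA with a DP partner and are held by the retinoblastoma family of pocket proteins. Of the 12 genes, 8 (66.7%) were higher in thymus lymphocytes by 2-fold or more, or 7 with TMM or DESeq2 library sizes. The lower genes were 3 (25%), among them TFDP1 by its most-read ID. Of all genes tested 46.4% were higher and 28.6% lower. The activator *e2f2* had 301 reads (9.13 CPM) in thymus lymphocytes and 2 reads in melanoma myeloid cells, close to the counts of *e2f1*. The third activator, *e2f3*, was at 23.4 CPM in thymus lymphocytes and 73.8 CPM in melanoma myeloid cells. The atypical repressors also differed in direction, with *e2f8* at 514 reads (15.6 CPM) in thymus lymphocytes and 0 in melanoma myeloid cells, and *e2f7* at 12.5 CPM in thymus lymphocytes and 113 CPM in melanoma myeloid cells.

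Among the remaining E2F genes, *e2f6*, a repressor, was at 105 CPM in thymus lymphocytes and 13.9 CPM in melanoma myeloid cells. *e2f5* was at 1.61 CPM in thymus lymphocytes and 0.279 CPM in melanoma myeloid cells, and *e2f4* at 60.4 CPM in thymus lymphocytes and 45.5 CPM in melanoma myeloid cells, a log2 ratio of 0.40 that turned to −0.17 with TMM and −0.12 with DESeq2 library sizes. The DP partner *tfdp2* was at 425 CPM (418 to 433) in thymus lymphocytes and 11.7 CPM (10.7 to 12.9) in melanoma myeloid cells, a ratio of 36.2 (33.0 to 39.8). Of the IDs named TFDP1, ENSDARG00000016304 was at 19.1 CPM in thymus lymphocytes and 65.0 CPM in melanoma myeloid cells, and ENSDARG00000019293 at 52.8 CPM in thymus lymphocytes and 0.152 CPM in melanoma myeloid cells. The pocket proteins were all higher in thymus lymphocytes, with *rb1* at 269.8 CPM in thymus lymphocytes and 60.0 CPM in melanoma myeloid cells, *rbl1* at 52.1 CPM in thymus lymphocytes and 0.152 CPM in melanoma myeloid cells, and *rbl2* at 4.34 CPM in thymus lymphocytes and 0.152 CPM in melanoma myeloid cells.

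**Figure D4:**
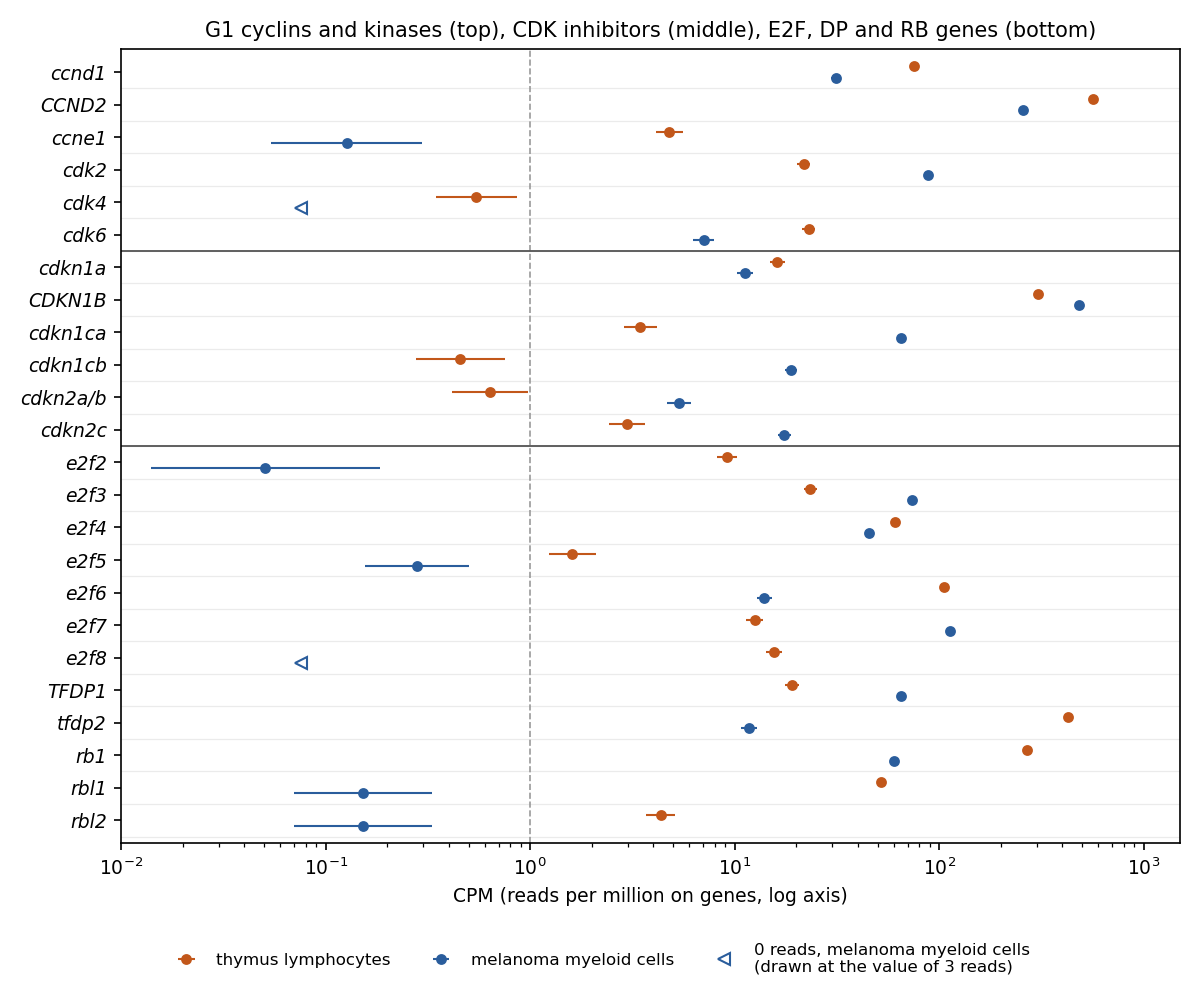
CPM of the G1 cyclins and kinases, CDK inhibitors, and E2F, DP and retinoblastoma genes in thymus lymphocytes (orange) and melanoma myeloid cells (blue) on a log axis, with 95% Wilson intervals; the dashed line marks 1 CPM, open triangles mark 0 reads at the value of 3 reads, and *cdkn2d* (0 reads in both) is left out. Blue lies to the right for 5 of the 6 inhibitors shown and for *cdk2*, *e2f3*, *e2f7* and TFDP1, and orange for most others. Of the 15139 genes tested, 8915 were higher in thymus lymphocytes by any amount.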

How the data were processed

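RNA-seq counts were taken for 2 libraries, 1 per population. The authors sorted the cells, amplified cDNA from 1 ng of RNA with a SMART-Seq kit for ultra-low input, made Nextera XT libraries and deposited whole-number counts of reads per Ensembl gene. The submitters' processing notes name cutadapt, STAR 3.0, HTSeq and GRCz11, whereas the paper's methods name Cutadapt, TopHat, GRCz10 and Cufflinks. Strand setting and annotation release are not given in the sources used here. Amplification from so little RNA can lose rare transcripts, and paralogs that share sequence can lose or split reads.

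Summary rows for reads on no gene, 5 rows with 28.4% of the reads in the thymus file, were left out, and the myeloid file held none. Any difference in counting between the files would go with the population and cannot be told apart from it. CPM were computed per 1000000 reads on genes. Levels have Wilson and ratios exact (Clopper-Pearson) 95% intervals. A gene was counted as higher or lower at 2-fold with 1 CPM added, among genes that reached 1 CPM in at least 1 library. Symbols were available for 29201 of 32520 IDs. Where several IDs matched, the one with most reads stood for the symbol. Every member is named. Of the other 2 lists, the 3 genes with the highest and the 3 with the lowest ratio are named, and of the 3 short lists each matched gene. Some genes that this rule names are not reported here. The members, lists and marker genes were chosen with earlier results of these data known, and complexes, cohesin and anaphase-promoting complex genes after the values were seen. Alternatives were TMM sizes from edgeR 4.0.16 and DESeq2 1.42.0 size factors in R 4.3.3, library sizes that leave out the 10 most-read genes of each library, a pseudocount of 0.1 CPM, thresholds of 0.5 and 5 CPM, folds of 1.5 and 4, a minimum of 10 reads, summed IDs and lists without single genes. Scripts were tested on simulated data with scipy 1.17.1, pandas 2.3.3 and numpy 2.4.6 under Python 3.11.15. Figures were drawn with matplotlib 3.10.9.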

Additional observations from a re-analysis of the deposited data

How the results depend on the processing

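The direction of the S phase median and of the mitosis median did not reverse under any setting tried. The median log2 ratio of the S phase genes was 2.16 with TMM, 2.19 with DESeq2 size factors, 3.66 with a pseudocount of 0.1 CPM and 1.75 over the 14 genes with 10 reads or more in both libraries, a setting added after seeing the data, in place of 2.56. For the mitosis genes TMM gave a median of −2.23, DESeq2 size factors gave −2.19, and it was −2.04 over the 18 genes with 10 reads or more in both libraries, in place of −1.68. The counts higher in thymus lymphocytes were 8 of those 14 and 1 of those 18, in place of 18 of 24 and 3 of 20. The setting removes genes with few reads in melanoma myeloid cells, and no share of all genes was taken under it. Reads on mitosis genes for each read on S phase genes in thymus lymphocytes were 0.357 without *mcm2* and *nusap1*, 0.156 without *mki67* and 0.363 with 10 reads or more in both libraries, in place of 0.287. In melanoma myeloid cells they were 4.37 without *mcm2* and *nusap1* and 5.15 without *mki67*, in place of 5.33. The TMM and DESeq2 scalings also turned *gins2* and *rpa2*, as given with their levels. The same scalings moved the median log2 ratio of all genes tested from 0.73 to 0.20 and 0.24. Why these sizes differ from the totals was not tested. In the other 44 comparisons with a setting, values stayed within the counting interval or counts within 1.5 times.

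Dividing counts by coding length before summing was not run, as no lengths were used here. No paired analysis was possible because each population had 1 library, and leaving out a library was not possible either. Counts of 3 reads or fewer, 13 of the 48 genes in melanoma myeloid cells, limit the ratios that rest on them: only the lower bound is informative, and amplification error is in no interval. Of the 46 members at 1 CPM or more in thymus lymphocytes, 12 (26.1%) were that low, near the 25.1% of all such genes.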

Other observations

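Cohesin, which holds sister chromatids together from S phase to anaphase, was looked at after the values above were seen. Of 13 genes tested in a list of cohesin subunits and regulators, 11 were higher in thymus lymphocytes by 2-fold or more, 8 with TMM or DESeq2 library sizes, and 1 was lower. Of all genes tested 46.4% were higher, and 39.8% with TMM or 40.2% with DESeq2 library sizes. The ring subunit *smc3* was at 110.5 CPM in thymus lymphocytes and 41.4 CPM in melanoma myeloid cells, and *rad21a*, which closes the ring, at 491 CPM in thymus lymphocytes and 129 CPM in melanoma myeloid cells. A STAG1 gene had 1635 reads (49.6 CPM) in thymus lymphocytes and 3 reads in melanoma myeloid cells. A second ID of that symbol had 448 reads (13.6 CPM) in thymus lymphocytes and 55 reads (1.39 CPM) in melanoma myeloid cells. *sgo1*, which protects cohesin at centromeres during mitosis, was the 1 lower gene, at 16.5 CPM in thymus lymphocytes and 70.3 CPM in melanoma myeloid cells.

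Genes of the anaphase-promoting complex, whose activator *cdc20* was among the members, lay in both directions. Of 16, 6 (37.5%) were higher in thymus lymphocytes by 2-fold or more, 6 were lower and 4 lay within 2-fold, beside 46.4% higher and 28.6% lower among all genes tested (39.8% and 35.6% with TMM library sizes), with a median log2 ratio of 0.05 that turned to −0.52 with TMM and −0.48 with DESeq2 library sizes. *cdc27*, a scaffold subunit, was at 129 CPM in thymus lymphocytes and 6.08 CPM in melanoma myeloid cells, and *cdc23*, another, had 829 reads (25.1 CPM) in thymus lymphocytes and 0 in melanoma myeloid cells. The small subunit genes *anapc11*, *anapc15* and *cdc26* were at 8.89, 3.15 and 5.40 CPM in thymus lymphocytes and at 49.3, 30.3 and 33.7 CPM in melanoma myeloid cells.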
